A study of Xenopus laevis with 8 samples.

Results

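The glycolysis enzymes examined here are the products of *hk1*, *hk2*, *gpi*, *pfkl*, *aldoa*, *tpi1*, *pgk1*, *pgam1*, *eno1* and *ldhb*, measured in *Xenopus laevis* animal caps that were or were not given the eye field transcription factors (EFTFs). Probe sets were collected by gene symbol, with the endings .L and .S removed. These endings mark the homoeologous copies that this allotetraploid frog keeps of many genes. The array measured 9 of the 10 genes with 16 probe sets, out of 6485 genes with a name on the array, and *pfkl* had no probe set of its own. *hk2* was chosen by its lower level in EFTF caps on these same arrays, so its values are given as a description with no test, and the question asked is whether the other enzymes moved with it.

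EFTF caps came from embryos injected in early cleavage with RNA for *otx2*, *rax*, *pax6*, *six3*, *six6*, *nr2e1* and *tbx3* together with RNA for a fluorescent protein. GFP caps came from embryos that received the fluorescent protein RNA only. The labels call it GFP and the methods Venus YFP. The methods describe injection into embryos that carried a Venus YFP transgene, but do not say so for the array samples in particular. By the methods several caps were pooled for each chip. Caps were cut from blastulae and collected at an age that corresponds to stage 15, and each of the 4 EFTF and 4 GFP RNA samples was hybridised to 1 Affymetrix GeneChip.

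Glycolysis splits glucose into pyruvate in the cytoplasm and yields ATP and NADH. Hexokinases trap glucose in the cell by phosphorylation, the enzymes from glucose-6-phosphate isomerase to enolase carry the carbon on, and lactate dehydrogenase converts pyruvate to lactate and regenerates NAD. Early amphibian embryos live on maternal stores of yolk and glycogen, which the cells of the animal cap carry with them, and caps left alone form epidermis.

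Levels are log2 intensities after RMA, which corrects the background of each array, equalises the arrays and summarises the probes of a probe set, and changes are EFTF minus GFP on that scale. A probe set counts as above background where it exceeds the highest of the control probe sets that match no frog transcript. RMA levels of different probe sets cannot be ranked against each other, because each probe set binds its target with its own strength. Across 15491 probe sets, limma called 220 at an adjusted p below 0.05 (118 higher, 102 lower, and 124 higher and 170 lower once array medians were made equal), which is 1.42% of those tested. One array titled GFP, replicate 1, carries EFTF in its source label. Its *otx2.L* level was 6.30, against 9.21 to 9.73 on the EFTF arrays and 5.53 to 6.06 on the other GFP arrays, and counts without replicate 1 are given below. Neural markers summed to 11.96 to 12.89 in EFTF and 9.16 to 10.47 in GFP caps. Replicate 1 gave both the lowest EFTF sum (11.96) and the highest GFP sum (10.47, the other GFP arrays 9.16 to 9.79). Cement gland markers summed to 12.59 to 13.45 in EFTF and 10.41 to 10.93 in GFP caps. Epidermal markers summed to 14.00 to 14.40 in EFTF and 14.47 to 14.66 in GFP caps, and most of that sum came from *krt70.S* and *itln1.L*. Of the 15 epidermal probe sets limma called 0. On average 12 were lower in EFTF caps and 3 higher, which were both *epha4.L* probe sets (0.87 and 2.17) and *dlx5.L* (0.22). For endoderm the sums were 6.20 to 6.41 in EFTF and 6.24 to 6.77 in GFP caps, with *gata6.S*, *sox17a.L* and *sox17a.S* above background on 0 arrays, and for blood 7.69 to 7.88 in EFTF and 7.26 to 7.63 in GFP caps, with *gata1.L* and 1 of 2 *tal1.S* probe sets on 0 arrays.

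Hexokinase 2, the hexokinase known from muscle and from cells with a high glucose demand, was lower in EFTF caps. On EFTF replicates 1 to 4 *hk2.L* read 5.41, 4.51, 3.63 and 4.29, against 6.51, 6.13, 6.51 and 6.82 on GFP replicates 1 to 4. The GFP arrays lay close together, while the EFTF arrays were spread out, with replicate 1 highest and replicate 3 lowest, and the groups did not overlap. The EFTF caps averaged 4.46 ± 0.74 and the GFP caps 6.49 ± 0.28 (SD, n = 4 each), a change of -2.03 ± 0.35 (SE), or 4.08-fold lower. Paired by replicate number, the differences were -1.10, -1.62, -2.88 and -2.52. The group accounted for 81.6% of the sum of squares of *hk2.L* and the replicate number for 8.50%.

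The profile of *hk2.L* over the 8 arrays was compared with that of every other probe set with 1 symbol, after each was centred on its mean. The closest, by the root mean square of the differences, were *poc5.L* (0.197), *foxi1.L* (0.227), *fam161a.L* (0.233), *rabl2b.S* (0.285) and *tfcp2l1.S* (0.327). Being picked for their likeness to *hk2.L*, their own changes are given no test. The closest, *poc5.L*, read 6.27, 5.31, 4.58 and 4.90 in EFTF caps, against 7.15, 6.58, 7.15 and 7.13 in GFP caps. *foxi1.L*, which encodes a forkhead regulator of ionocytes, read 4.57, 3.69, 3.01 and 3.59 in EFTF caps, against 6.06, 5.60, 5.28 and 6.0 in GFP caps. All of these probe sets had EFTF replicate 1 highest, and all but *fam161a.L* had EFTF replicate 3 lowest. That likeness to *hk2.L* is what they were picked for.

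Markers of 2 cell types of the tadpole epidermis moved in the same direction as *hk2.L*. The ionocyte markers, 12 probe sets for 9 of 15 listed genes, summed to 10.91, 10.48, 8.0 and 9.09 on EFTF replicates 1 to 4 and to 11.81, 12.03, 11.96 and 11.74 on GFP replicates 1 to 4. Among the EFTF arrays *hk2.L* and this sum had the same order, replicate 1, 2, 4 and 3 from high to low. In GFP caps most of the sum came from *ca12.L* and *atp6v1b1.L*, which had that order, and *foxi1.L*, picked above, is part of it. Other ionocyte probe sets differed. EFTF replicate 2 was highest for *ca2.L*, *ca2.S*, *slc4a1.L* and *atp6v0d2.L*, and replicate 4 was lowest for *ubp1.L*. The neural sum ran in the reverse order, with 11.96, 12.26, 12.89 and 12.70 on EFTF replicates 1 to 4. How many other probe sets have that order was not counted. The multiciliated cell markers, 12 probe sets for 10 of 17 genes, summed to 11.30, 10.86, 9.91 and 9.63 on EFTF and 12.07, 12.13, 12.08 and 11.66 on GFP arrays. Apart from *foxi1.L*, picked above, 1 of 11 ionocyte probe sets was called lower by limma (5 with the replicate number as a block), and of the 12 multiciliated ones 2 were (10 with the block). Over all probe sets 0.658% were called lower without and 5.25% with the block. Of both lists only *myb.S* was above background on 0 arrays. These are whole caps, so fewer cells of a type and less RNA per cell cannot be told apart, and the part of these cells in the *hk2.L* values was not tested.

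**Figure D1:**
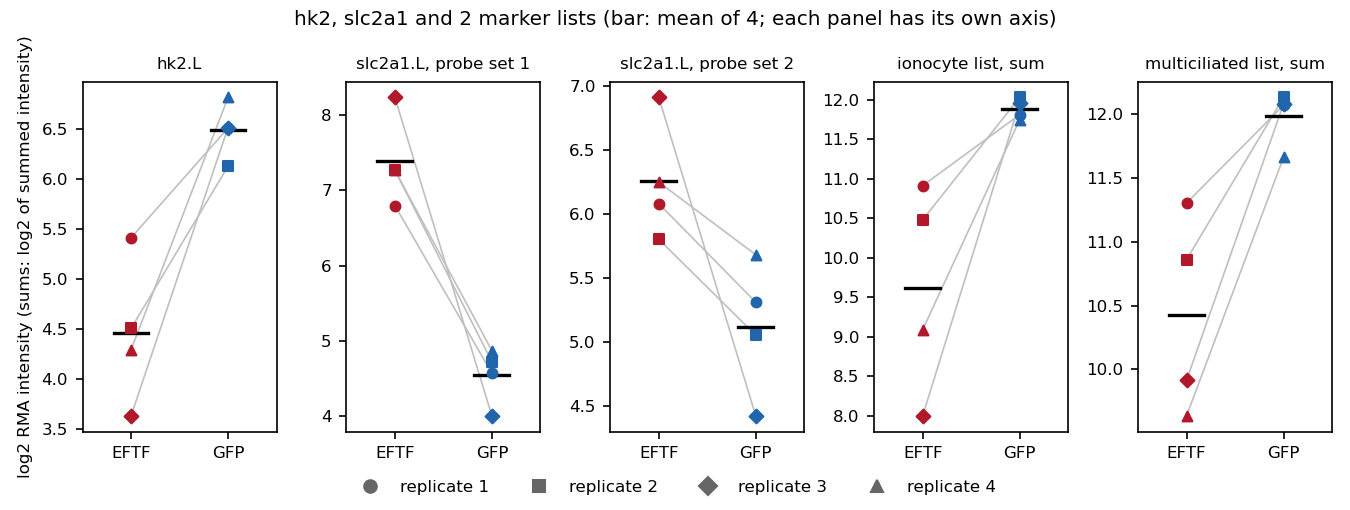
Log2 RMA intensity of *hk2.L*, of both *slc2a1.L* probe sets (the glucose transporter described below) and of the log2 summed intensity of ionocyte and multiciliated markers, with EFTF arrays left and GFP arrays right, a symbol per replicate number, grey lines joining equal numbers and bars at the mean of 4. Each panel has its own vertical axis. The EFTF arrays lie below all GFP arrays for *hk2.L* (3.63 to 5.41 against 6.13 to 6.82) and for both marker sums, and above them for *slc2a1.L*.

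None of the 15 probe sets of the other 8 enzymes was called by limma, in either direction, against 1.42% of all probe sets (0.658% lower). With so small a share over the array, 0 of 15 does not show whether they followed *hk2*. The equal-variance test also called 0 of the 15, but it called only 2 of all 15491 probe sets and so cannot decide the question. In limma 1 of the 15, *hk1.L*, had an unadjusted p below 0.05, as did 2677 of all 15491. Groups did not overlap for 0 of the 15, while EFTF arrays lay below all GFP arrays for 4.75% and above them for 5.42% of all probe sets. On average 11 of the 15 were lower in EFTF caps and 4 higher, with a median change of -0.30, against 0.02 over all probe sets.

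Deviations from the group means correlated at 0.44, 0.60, 0.22 and 0.64 between EFTF and GFP arrays of the same replicate number, 1 to 4. Arrays of different numbers reached 0.28, between EFTF replicate 2 and GFP replicate 3, so the pairing is least clear for replicate 3. No source used here states that the numbers pair the arrays. A fit with the replicate number as a block compares the arrays within such pairs. With the block 3 of the 15 were called lower and 0 higher, against 5.25% lower and 4.91% higher over all probe sets. The 3 are *aldoa.S* and 2 of the 4 *tpi1.S* probe sets, so they stand for 2 genes. Without replicate 1 the blocked fit again called 3, which were *aldoa.S*, 1 *tpi1.S* probe set and *hk1.L*, against 1829 of all probe sets. Without replicate 2, 3 or 4 it called 0 of the 15, against 0, 42 and 0 of all probe sets. Those fits therefore cannot show whether a call holds. The EFTF array was the lower one in all 4 pairs for 7 of the 15 (46.7%), against 16.5% of all probe sets, and it was the higher one in all 4 pairs for 0 of the 15, against 19.0%. The 7 are *hk1.L*, *aldoa.S*, both *ldhb* copies and 3 *tpi1.S* probe sets of 1 sequence, which are not independent. Some of these pairs differed little, by -0.002 for *hk1.L* in replicate 1, and by -0.03 for *ldhb.L* and -0.09 for *ldhb.S* in replicate 4. The pairs of *aldoa.S* and of the 3 *tpi1.S* probe sets all differed by more. Of the 14 above background on all 8 arrays, 7 were lower in all 4 pairs, against 20.0% of all such probe sets.

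**Figure D2:**
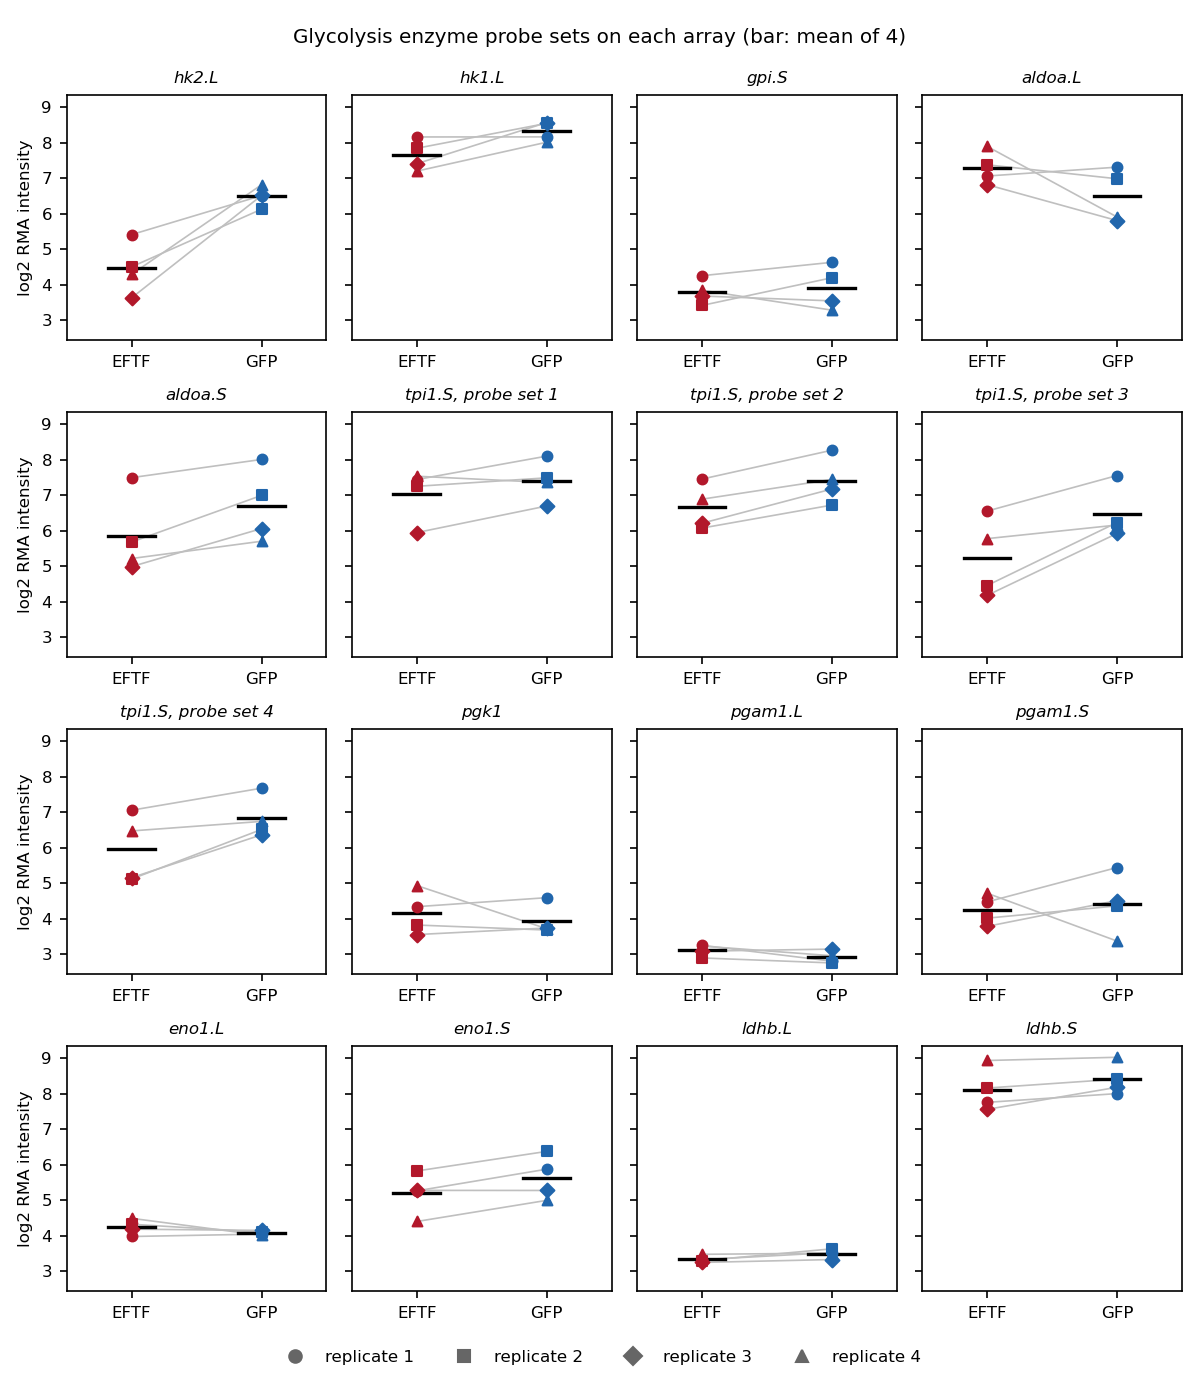
Log2 RMA intensity of the 16 glycolysis enzyme probe sets on each array, in the order of the pathway and on 1 common vertical axis, with EFTF left and GFP right of each panel, a symbol per replicate number, grey lines joining equal numbers and bars at the mean of 4. *hk2.L* has no overlap between groups, *aldoa.S* and *tpi1.S* differ more between replicates than between groups, and *aldoa.L* has the higher mean in EFTF caps.

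Hexokinase 1, the isoform that most vertebrate tissues express, was lower in EFTF caps in all 4 pairs and did not pass the test. *hk1.L* read 8.16, 7.84, 7.41 and 7.20 in EFTF caps, against 8.16, 8.54, 8.57 and 8.01 in GFP caps. Replicate 1 read nearly the same in both groups, and the EFTF arrays of replicates 2 to 4 lay below all GFP arrays. The change was -0.67 ± 0.23 (SE, 95% confidence interval -1.21 to -0.13), which did not pass in limma (adjusted p = 0.190) or with the block (adjusted p = 0.084), and was called in the blocked fit without replicate 1 (adjusted p = 0.029). Glucose-6-phosphate isomerase, which turns glucose-6-phosphate into fructose-6-phosphate, is encoded by *gpi*. *gpi.S* read 4.26, 3.42, 3.69 and 3.85 in EFTF caps, against 4.63, 4.20, 3.55 and 3.29 in GFP caps, with EFTF lower in 2 pairs and higher in 2. Its change was -0.12 ± 0.31 (interval -0.83 to 0.60, limma adjusted p = 0.909).

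Aldolase A, which cuts the hexose bisphosphate into triose phosphates, has 1 named probe set for each copy, and neither was called without the block. *aldoa.L* read 7.06, 7.38, 6.82 and 7.90 in EFTF caps, against 7.31, 6.98, 5.81 and 5.91 in GFP caps. It was higher in EFTF caps in 3 of 4 pairs, by 0.79 ± 0.39 on average (interval -0.10 to 1.67, limma adjusted p = 0.354, and 0.216 with the block). *aldoa.S* read 7.49, 5.68, 4.99 and 5.22 in EFTF caps, against 8.0, 6.99, 6.06 and 5.70 in GFP caps. Replicate 1 was the highest array of both groups and the replicate number took 80.2% of its sum of squares, while EFTF was lower in all 4 pairs. Its change was -0.84 ± 0.66 (interval -2.36 to 0.67, limma adjusted p = 0.601), with a blocked interval of -1.27 to -0.42 (adjusted p = 0.039). The blocked call was kept without replicate 1 (adjusted p = 0.043). Without replicate 2, 3 or 4 the adjusted p was 0.138, 0.131 and 0.081. Those fits called few or no probe sets of the whole array, so the loss there is not particular to *aldoa.S*. A further *aldoa* probe set carries the symbols of both copies and was left out.

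The difference between both *aldoa* copies was tested directly. The change of *aldoa.L* exceeded that of *aldoa.S* by 1.63 ± 0.58 (interval 0.32 to 2.94), with limma adjusted p = 0.225 over the 1017 homoeologous pairs on the array and adjusted p = 0.054 with the block. The blocked fit called 5.31% of those pairs and 0 of the 4 pairs among these enzymes. For *eno1*, *pgam1* and *ldhb* the L minus S differences of change were 0.61 ± 0.40, 0.37 ± 0.42 and 0.14 ± 0.31, with adjusted p from 0.564 to 0.895 without the block. Probe sets with 1 symbol may still hybridise to both copies, so a difference between copies may be understated.

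Triosephosphate isomerase, which interconverts the triose phosphates, is read by 4 *tpi1.S* probe sets, of which 3 were designed from the same sequence and are not independent. The first of those read 7.45, 6.07, 6.21 and 6.89 in EFTF caps, against 8.26, 6.72, 7.17 and 7.44 in GFP caps. The second read 6.55, 4.46, 4.18 and 5.78 in EFTF caps, against 7.55, 6.23, 5.92 and 6.16 in GFP caps. In both, every EFTF array lay below the GFP array of the same number, replicate 1 was highest in each group, and the groups overlapped. The changes were -0.74 ± 0.40 (limma adjusted p = 0.398) and -1.22 ± 0.58 (adjusted p = 0.329), and with the block adjusted p was 0.027 and 0.041. Without single replicates the blocked adjusted p ran from 0.038 to 0.120 for the first and from 0.063 to 0.158 for the second. The first call was kept without replicate 1 only and the second in none of the 4 fits. Without replicate 2, 3 or 4 few or no probe sets of the whole array were called, so those fits cannot decide whether the calls hold. The third probe set of that sequence changed by -0.87 ± 0.49 (adjusted p = 0.429, and 0.053 with the block). The fourth *tpi1.S* probe set, from another sequence, read 7.44, 7.25, 5.95 and 7.53 in EFTF caps, against 8.10, 7.49, 6.69 and 7.36 in GFP caps, and changed by -0.37 ± 0.41 (adjusted p = 0.743, and 0.245 with the block).

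The enzymes of the lower, ATP-forming part of the pathway showed no call with or without the block. Phosphoglycerate kinase, which makes the first ATP there, is encoded by *pgk1*, whose probe set read 4.34, 3.82, 3.55 and 4.93 in EFTF caps, against 4.59, 3.68, 3.74 and 3.72 in GFP caps. The change was 0.23 ± 0.33 (interval -0.53 to 0.99, adjusted p = 0.818). Phosphoglycerate mutase moves the phosphate group along the glycerate and is read by *pgam1.L* and *pgam1.S*. *pgam1.S* read 4.47, 4.02, 3.78 and 4.72 in EFTF caps, against 5.44, 4.36, 4.51 and 3.37 in GFP caps, with EFTF lower in the first 3 pairs and higher in the fourth (-0.17 ± 0.41, adjusted p = 0.896). *pgam1.L* read 2.90 to 3.25 in EFTF and 2.76 to 3.15 in GFP caps and was above background on 3 EFTF and 2 GFP arrays, so little could be detected there (0.20 ± 0.13, adjusted p = 0.516).

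Enolase, which forms phosphoenolpyruvate, is encoded by *eno1*. *eno1.S* read 5.26, 5.82, 5.27 and 4.40 in EFTF caps, against 5.87, 6.37, 5.27 and 4.99 in GFP caps. The EFTF array was lower by 0.55 to 0.61 in 3 pairs and level in replicate 3, and the change was -0.44 ± 0.37 (adjusted p = 0.640, and 0.101 with the block). *eno1.L* read 3.98, 4.32, 4.18 and 4.49 in EFTF caps, against 4.05, 4.10, 4.15 and 4.01 in GFP caps (0.17 ± 0.13, adjusted p = 0.584). Lactate dehydrogenase B is the subunit that predominates in the vertebrate heart. *ldhb.S* read 7.75, 8.15, 7.56 and 8.93 in EFTF caps, against 8.0, 8.40, 8.18 and 9.02 in GFP caps. It was lower in EFTF caps in all 4 pairs, by 0.09 to 0.62, and replicate 4 was highest in both groups, with 86.3% of the sum of squares going to the replicate number. The change was -0.30 ± 0.33 (adjusted p = 0.740, and 0.167 with the block). *ldhb.L* lay between 3.25 and 3.48 in EFTF and between 3.33 and 3.63 in GFP caps (-0.16 ± 0.11, adjusted p = 0.516).

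**Figure D3:**
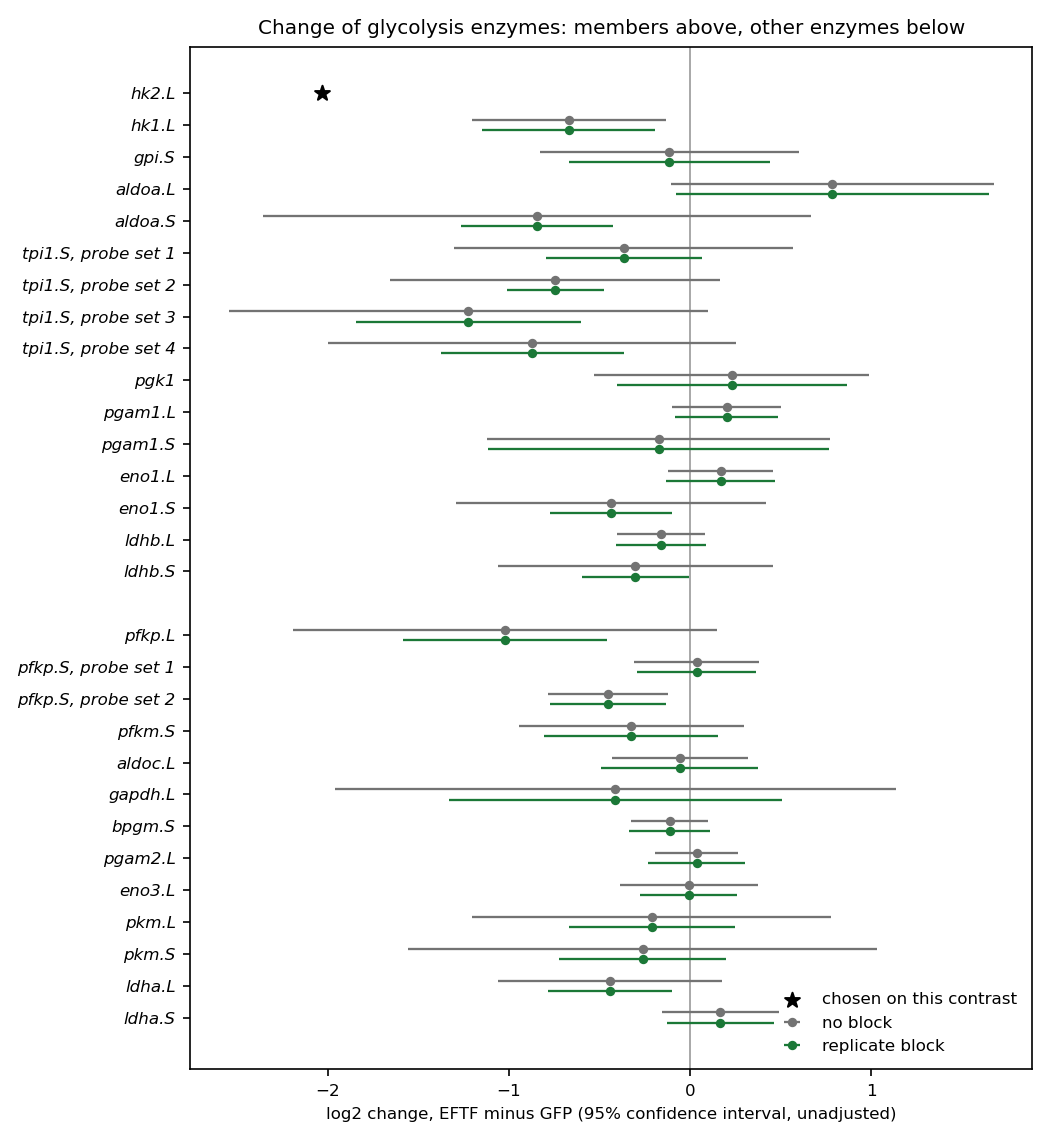
Log2 change, EFTF minus GFP, of the glycolysis enzyme probe sets (upper rows) and of other enzymes of the pathway (lower rows), with unadjusted 95% confidence intervals without the block in grey and with the replicate block in green. *hk2.L*, chosen on this contrast, is a star at -2.03 with no interval. Grey intervals cross 0 except those of *hk1.L* and of 1 *pfkp.S* probe set, and the green ones of *aldoa.S* and *tpi1.S* are narrower.

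Over the 15 probe sets the median share of the sum of squares was 56.2% for replicate and 27.0% for group, against 53.7% and 14.8% over all probe sets. There are more replicate numbers than groups, so the replicate share tends to be the larger without any effect. Each share is therefore read against that of all probe sets. The replicate share was near it and the group share above it. For the 14 of them above background on all 8 arrays the medians were 60.2% for replicate and 21.9% for group. All probe sets above background on all 8 arrays gave 54.5% and 18.3%, so the group share was then closer to that of the array. Replicate 1 was the highest array of both groups for 5 of the 15 (33.3%), against 11.8% of all probe sets. The 5 are *aldoa.S*, *gpi.S* and the 3 *tpi1.S* probe sets of 1 sequence. With both replicate 1 arrays left out, limma without the block called 0 of the 15. No count over all probe sets is given for that fit, so this 0 does not show whether they changed. Of 16 muscle and mesoderm probe sets 0 were called with or without the block (10.2% and 1.42% over all probe sets). An unadjusted p below 0.05 was found for 1 of them (2677 of all 15491). Muscle and mesoderm markers summed to 8.19 to 9.83 in EFTF and 9.80 to 10.63 in GFP caps. Most of that sum came from 1 *ckm.L* probe set, for a creatine kinase, which read 9.28, 9.63, 7.53 and 7.68 in EFTF caps, against 9.59, 10.39, 10.52 and 9.92 in GFP caps. On EFTF replicates 3 and 4 the sums were 8.19 and 8.31, so the other probe sets made up more of them there. The other 15 lay at 3.67 or less in EFTF and 3.96 or less in GFP caps, the list median was a change of -0.03, and *myod1.L*, *myl1.S*, *tnnc2.S*, *tnnt2.L* and 2 of 3 *myl1.L* probe sets were above background on 0 arrays.

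The remaining enzymes of the pathway were taken from a list of 19 genes, of which 9 were measured by 13 probe sets. None was called by limma (1.42% over all probe sets) and 1 had an unadjusted p below 0.05 (2677 of all 15491). The median change was -0.21. On average 10 were lower in EFTF caps and 3 higher, of which a *pfkp.S* and the *pgam2.L* probe set turned lower once array medians were made equal. Phosphofructokinase, which commits the sugar to glycolysis, is read here by *pfkp* and *pfkm* in place of *pfkl*. *pfkp.L* read 4.74, 5.92, 5.07 and 3.35 in EFTF caps, against 5.68, 6.29, 6.03 and 5.15 in GFP caps. EFTF replicate 4 was the lowest array, all 4 pairs were lower in EFTF caps and the groups overlapped. The change was -1.02 ± 0.51 (limma adjusted p = 0.361), and with the block it was called (adjusted p = 0.047). In the blocked fit without replicate 1 it was not called (adjusted p = 0.086). It was not called without replicate 2, 3 or 4 either, where few or no probe sets of the whole array were. Both *pfkp.S* probe sets (-0.45 ± 0.14 and 0.03 ± 0.15, adjusted p = 0.154 and 0.944) and *pfkm.S* (-0.33 ± 0.27, adjusted p = 0.632) were not called.

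Glyceraldehyde-3-phosphate dehydrogenase oxidises the triose phosphate and pyruvate kinase forms pyruvate, and both transcripts varied widely between replicates. *gapdh.L* read 7.29, 4.62, 5.43 and 6.80 in EFTF caps, against 7.90, 6.14, 5.91 and 5.85 in GFP caps (-0.41 ± 0.67, adjusted p = 0.841). *pkm.S* read 8.26, 6.39, 7.51 and 6.75 in EFTF caps, against 8.63, 7.04, 7.95 and 6.33 in GFP caps (-0.26 ± 0.56, adjusted p = 0.885). Both had replicate 1 highest in each group, and EFTF replicate 2 was the lowest array for *gapdh.L*, a transcript often taken as a constant control. *pkm.L*, *ldha.L*, *ldha.S*, *aldoc.L*, *bpgm.S* and *eno3.L* changed by -0.44 to 0.17 with adjusted p from 0.477 to 0.991. *pgam2.L*, the muscle mutase, was below background on all 8 arrays.

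Around the pathway, 140 probe sets in 7 lists, the 13 above included, gave 1 call without the block, the glucose transporter gene *slc2a1.L*. It read 6.80, 7.27, 8.24 and 7.27 in EFTF caps, against 4.57, 4.72, 4.00 and 4.87 in GFP caps. Every EFTF array lay above every GFP array, and replicate 3 had both the highest EFTF and the lowest GFP value. *slc2a1.L* rose 7.23-fold, by 2.85 ± 0.32 (interval 2.13 to 3.58, limma adjusted p = 0.0112, and 0.021 with the block). The call was kept without any 1 array (highest adjusted p = 0.046) and was lost within replicates 1 to 3 (adjusted p = 0.067). A second probe set of *slc2a1.L* read 6.08, 5.80, 6.91 and 6.25 in EFTF caps, against 5.31, 5.05, 4.42 and 5.68 in GFP caps. Its groups did not overlap either, and its change of 1.15 ± 0.31 did not pass (adjusted p = 0.111, and 0.0845 with the block).

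The transport list, with 15 probe sets, also held genes on the export side, which are named after their values were seen. *slc16a3.L*, encoding a monocarboxylate transporter that exports lactate, read 8.25, 7.33, 5.88 and 7.02 in EFTF caps, against 8.63, 8.77, 8.65 and 8.41 in GFP caps. All EFTF arrays lay below all GFP arrays, with replicate 3 lowest, and the change was -1.49 ± 0.43 (limma adjusted p = 0.126, and 0.0558 with the block). *slc16a3.S* (-0.54 ± 0.20, adjusted p = 0.225) and *bsg.L*, encoding the basigin chaperone of these transporters (-0.92 ± 0.46, adjusted p = 0.368), were called lower with the block (adjusted p = 0.030 and 0.045). The EFTF order of *slc16a3.L*, with replicate 1 highest and replicate 3 lowest, was that of *hk2.L* and of the ionocyte sum. Several single ionocyte probe sets had another order. *poc5.L*, *foxi1.L*, *rabl2b.S* and *tfcp2l1.S*, which were picked for their likeness to *hk2.L*, had that order too. How many probe sets of the array share it was not counted, and a link between these genes was not tested.

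With the replicate block 16 of the 140 probe sets were called (11.4%), against 10.2% of all probe sets. Of the 16, 14 were lower and 2 higher, while over all probe sets 5.25% were lower and 4.91% higher. The calls in the lists thus leaned to lower more than those of the array. Of the 140, 1 was called without the block, against 1.42% of all probe sets. The blocked count was 17, 0, 1 and 0 without replicates 1 to 4, against 1829, 0, 42 and 0 of all probe sets. An unadjusted p below 0.05 was found for 2677 of all 15491 probe sets. In side reactions of the triose phosphates and glycerate, 3 of 6 probe sets were called lower with the block and 0 without (3 at an unadjusted p below 0.05), with a median of -0.65. These, named after their values were seen, were *gpd1.L*, encoding glycerol-3-phosphate dehydrogenase (-1.61 ± 0.49, adjusted p = 0.140, and 0.046 with the block), *glo1.S*, encoding glyoxalase (-1.23 ± 0.29, adjusted p = 0.077, and 0.032 with the block), and *shmt1.L*, encoding a serine hydroxymethyltransferase (-0.82 ± 0.28, adjusted p = 0.178, and 0.021 with the block). *gpd1.L* read 9.23, 8.80, 7.49 and 6.88 in EFTF caps, against 9.87, 9.71, 9.86 and 9.40 in GFP caps, with no overlap.

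Genes of pyruvate fate and the citrate cycle, 46 probe sets, had 0 calls (1.42% over all probe sets) and a median of -0.05. There were 6 at an unadjusted p below 0.05 (2677 of all 15491) and 5 lower with the block (5.25% over all probe sets). Subunits of the mitochondrial pyruvate carrier made up 3 of those 5, *mpc1.S* (-0.95 ± 0.26), *mpc1.L* (-0.69 ± 0.19) and *mpc2.S* (-0.74 ± 0.20), with adjusted p from 0.110 to 0.121 and blocked adjusted p from 0.036 to 0.044, named after their values were seen. *mpc2.S* read 10.16, 10.35, 9.64 and 9.51 in EFTF caps, against 10.59, 10.86, 10.64 and 10.52 in GFP caps, and the groups did not overlap. Glycogen and other hexose enzymes, 23 probe sets, had 0 calls (1.42% over all probe sets) and a median of -0.23. There were 2 at an unadjusted p below 0.05 (2677 of all 15491) and 3 lower with the block (5.25% over all probe sets). The largest of these changes was that of *pygm.S*, a muscle-type glycogen phosphorylase gene named after its values were seen (-1.44 ± 0.56, adjusted p = 0.235, and 0.031 with the block), while its second probe set changed by -0.20 ± 0.28.

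The pentose phosphate list, 10 probe sets, had 0 calls with or without the block (10.2% and 1.42% over all probe sets) and a median of -0.25. In it 2 had an unadjusted p below 0.05 (2677 of all 15491). Genes that control glycolysis and its reverse, 27 probe sets, had 0 calls and a median of -0.08. There were 5 at an unadjusted p below 0.05 (2677 of all 15491) and 1 higher with the block (4.91% over all probe sets). The 1 is *mycn.L*, a MYC family regulator (0.82 ± 0.28, adjusted p = 0.177, and 0.033 with the block). Of the hypoxia-inducible factors, which answer to low oxygen, *hif1a.L* changed by 0.37 ± 0.30 and -0.01 ± 0.14 in its 2 probe sets (adjusted p = 0.613 and 0.986), and *epas1.S* by -1.19 ± 0.32 (adjusted p = 0.104, and 0.054 with the block). All 3 genes are named after their values were seen.

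**Figure D4:**
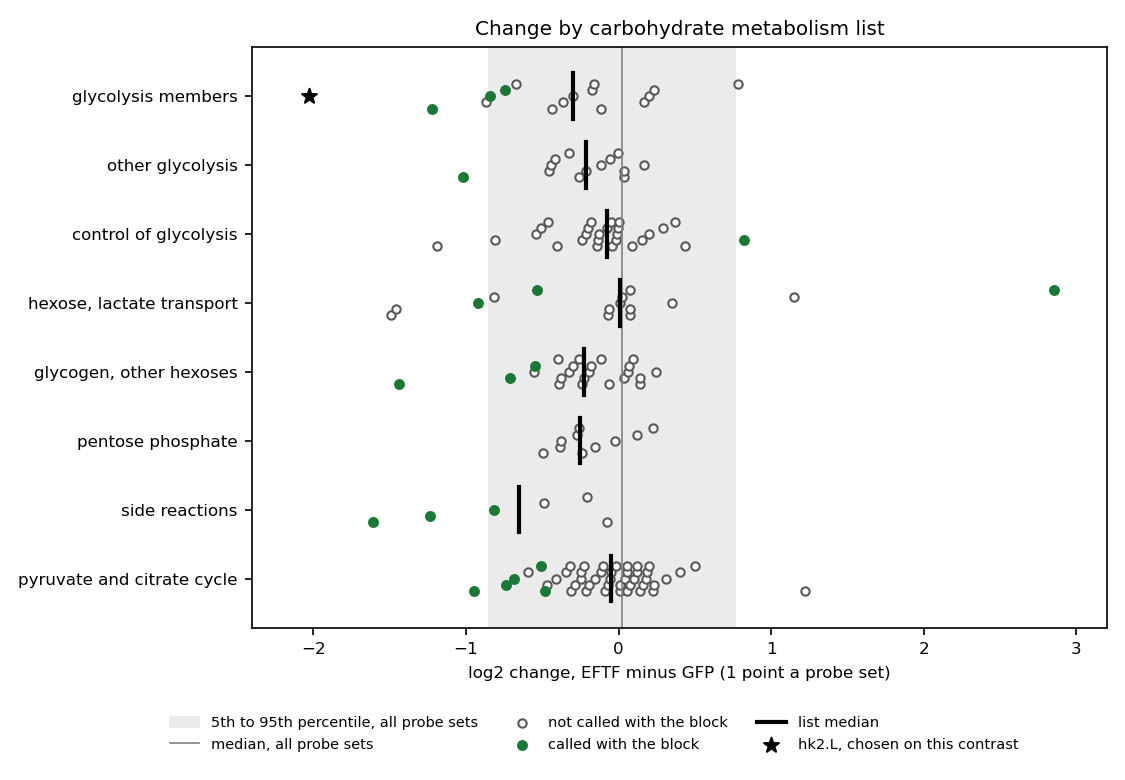
Log2 change, EFTF minus GFP, of every probe set in the glycolysis enzyme list and the 7 lists around it (1 point each), filled where called with the replicate block, with a black bar at each list's median and the 5th to 95th percentile of all probe sets (-0.85 to 0.76) shaded. *hk2.L* is a star and is left out of the median of its list, and the 1 point past 2 on the right is *slc2a1.L*.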

How the data were processed

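RNA of 4 EFTF and 4 GFP animal cap samples was hybridised to 1 array each. Groups and replicate numbers come from the sample titles. The series calls the arrays biological replicates, whereas the methods describe triplicates from 3 females on 3 days. No source used here ties an array to a day or female, so p-values measure the spread between these arrays. The authors preprocessed the scans with RMA (version not given in the sources used here), and the deposited values are intensity on a linear scale. Because RMA compresses low values, changes of dim transcripts are understated. The log2 of each intensity was taken with no pseudocount and no further normalization.

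Of 15611 probe sets, 120 controls were left out and 15491 tested. By the annotation of the platform 9304 had 1 symbol, 195 several and 5992 none, and a gene table of assembly Xenopus_laevis_v10.1, joined on gene ID, matched 9227 and changed 2 symbols. Probe sets with several symbols were not named. A probe set was above background when it exceeded the highest of 17 tag controls (2.90 to 3.18 on the log2 scale), as 72.4% to 83.4% of probe sets did on an array.

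EFTF was set against GFP in limma 3.58.1 (R 4.3.3) by lmFit and eBayes, with two-sided p-values adjusted by Benjamini-Hochberg over all 15491 probe sets and called below 0.05, and all adjusted p-values come from limma. The fit without the block was tested on simulated data with independent noise. That test covers neither differences shared within a replicate number nor the fit with the block. The number of arrays limits the precision, and log2 changes had a median SE of 0.18. Deviations from the group means of arrays with the same replicate number correlated at 0.44, 0.60, 0.22 and 0.64 across probe sets for replicates 1 to 4, and those of arrays with different numbers at -0.45 to 0.28. The 0.28, between EFTF replicate 2 and GFP replicate 3, exceeded the 0.22 of replicate 3. The numbers were taken to pair the arrays, which no source used here states. The fit with the replicate number as a block is given where it changes a call. Homoeologous copies were compared by fitting the L minus S difference of each pair.

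The enzymes, the 7 lists around them and the 8 marker lists were chosen with earlier results of these data known. By rule, all probe sets of the enzymes and of the other glycolysis list were named. So were up to 4 called probe sets of each other list around the pathway, and the 5 with the profile most like that of *hk2.L*. Further genes of those lists were named after their values were seen, as stated where they appear. Alternatives were leaving out each array, the replicate block, replicate 4 as a batch block, replicates 1 to 3 alone, equal medians, renewed quantile normalization, a pseudocount of 16, a background filter, an intensity trend and an equal-variance test.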

Additional observations from a re-analysis of the deposited data

Results flagged for a closer look

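The 35 probe sets named by rule have 2 groups of 4 arrays each. Among these groups, 3 had an array far from the other 3 by Dixon's 95% criterion. Chance gives that in about 1 in 20 groups, so 3 is no more than chance alone would give. On GFP replicate 1 *pgk1* read 4.59, where the next GFP array read 3.74 (gap over range 0.938). On the same array *gapdh.L* read 7.90, where the next read 6.14 (0.860). On GFP replicate 2 *poc5.L* read 6.58, below the next lowest GFP array at 7.13 (0.966).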

How the results depend on the processing

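Of the 15 other enzyme probe sets 0 were called in every alternative but the replicate block (3), and, chosen after seeing the data, 3 were called with the block without replicate 1 and 0 with the block without replicate 2, 3 or 4. Counts over all probe sets and over the 140 around the pathway, against 220 and 1, were 25 to 702 and 1 to 5 without single arrays, 1575 and 16 with the replicate block, 18 and 0 within replicates 1 to 3, 754 and 3 with a block that separates replicate 4 from the rest, 92 and 1 with a pseudocount of 16, and 2 and 0 by the equal-variance test. With the block and without replicates 1 to 4 in turn they were 1829, 0, 42 and 0 over all probe sets and 17, 0, 1 and 0 around the pathway. The highest count around the pathway, 5, came without EFTF replicate 1. Changes that turned sign were all small and not called. Without single arrays the change ran from -0.028 to 0.45 for *pgk1*, -0.52 to 0.17 for *pgam1.S*, -0.32 to 0.12 for *gpi.S*, -0.064 to 0.17 for a *pfkp.S* probe set, -0.018 to 0.080 for *pgam2.L*, -0.10 to 0.11 for *eno3.L*, -0.65 to 0.12 for *pkm.S*, -0.83 to 0.071 for *gapdh.L*, -0.59 to 0.11 for *pkm.L* and -0.16 to 0.026 for *aldoc.L*. Within replicates 1 to 3 *pgk1* changed by -0.099 and *eno3.L* by 0.021, and with equal array medians *pfkp.S* and *pgam2.L* both changed by -0.033. The cause of these moves was not tested. Transcripts near background, such as *pgam1.L*, *pgam2.L* and *bpgm.S*, could change without being detected here.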
